A study of Mus musculus with 30 samples.

Results

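The genes described here are the nuclear genes that encode complexes II to V of mitochondrial oxidative phosphorylation, measured by RNA sequencing of the mouse left ventricle. They were chosen by name, not by any measured difference. All protein-coding genes of the GENCODE annotation whose symbol starts with Uqcr, Atp5, Sdh followed by a, b, c or d, or Cox followed by a digit were taken, with Cyc1 and Cycs, and genes that assemble complex II (Sdhaf) were left out. Of 59 such genes, 56 averaged 10 counts per heart or more in at least 1 of 2 studies and were kept. The 56 genes comprise 4 of complex II, 9 of complex III, Cycs, 25 of complex IV and 17 of complex V. The 3 left out were Cox7b2, Cox8c and a second annotated Atp5o gene. Just inside the minimum was Cox6b2, the testis isoform of a complex IV subunit, with a mean of 13.0 counts in the peptide study. The nearest gene outside was Cox7b2, far below the minimum with a mean of at most 0.438 counts in either study.

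The hearts came from 30 male wild type mice, C57BL6 in the labels and C57BL6J in their account of peptide treatment, in 2 separate studies, and each heart was 1 mouse. Hearts are named as in the labels, such as Abeta42_3457 or Con_22 (control antibody), by group and number of the mouse. In the peptide study, 7 mice received daily intraperitoneal injections of Aβ42, a recombinant human amyloid beta peptide, and 7 received the same amino acids in scrambled order, ScrAβ42, from 12 weeks of age by the labels. The study's methods give a range of ages at the first injection, with 12 weeks as its upper end. The labels give the daily dose as 1 mg, whereas the study's methods give it in micrograms. In the antibody study, 8 mice received 3D6, an antibody that neutralises amyloid beta, and 8 received a control antibody. These mice were also 12 weeks old when the study began. According to the methods they were fed a high-fat diet during antibody treatment, whereas the series description says that they were given Aβ42. Neither description is of a transgene, and total RNA of left ventricular tissue was sequenced with a stranded kit. The comparisons address whether peptide, or its neutralisation, moves the expression of mitochondrial genes in the heart. In bulk tissue, fewer cells of a type and less RNA per cell cannot be told apart.

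Complex II, succinate dehydrogenase, and complex I pass electrons through ubiquinone to complex III, and cytochrome c carries them on to complex IV, which reduces oxygen. Complexes III and IV pump protons out of the matrix, and complex V, the ATP synthase, uses their return to make ATP. The heart relies on this chain for its continuous work, and its muscle uses its own isoforms of several complex IV subunits. All subunits of complex II and most subunits of the others are encoded in the nucleus, and a few core subunits of complexes III, IV and V are encoded by the mitochondrial genome. The nuclear respiratory factor NRF-1, ETS-family factors such as GABP, and the estrogen-related receptors are known to bind promoters of genes of this kind.

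The stretches below lie upstream of 4 of the genes that recur in the results, Sdha, Sdhd, Cox6a1 and Atp5g3, and show where letters like those bound by these factors occur. They are RefSeq reference sequence of GRCm38.p6, all on the minus strand and written 5′ to 3′, and capitals mark the matches. For Sdha, which encodes the catalytic flavoprotein of complex II, and Cox6a1, the ubiquitous isoform of complex IV subunit 6A, both marked words match GCGC, any base, TGCGC, an NRF-1-like motif, on one strand or the other. For Sdhd, a membrane anchor of complex II, the first word is NRF-1-like and the second is CTTCCGG, an ETS-like motif. For Atp5g3, a gene of the ATP synthase c-ring, the word is TGACCTTGA, a motif like that of the estrogen-related receptors.
Sdha, chr13:74350281-74350363: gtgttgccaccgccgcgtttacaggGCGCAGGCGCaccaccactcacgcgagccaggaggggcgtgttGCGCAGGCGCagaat
Sdhd, chr9:50603864-50603953: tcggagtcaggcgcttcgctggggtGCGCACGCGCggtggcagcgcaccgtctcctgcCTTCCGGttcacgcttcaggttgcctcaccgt
Cox6a1, chr5:115349041-115349145: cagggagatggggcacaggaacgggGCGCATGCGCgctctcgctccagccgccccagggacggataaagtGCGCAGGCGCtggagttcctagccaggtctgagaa
Atp5g3, chr2:73911345-73911403: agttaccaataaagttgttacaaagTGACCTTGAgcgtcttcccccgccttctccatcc

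Promoter sequence was found for 43 of the 56 genes, and both strands of the 250 bases before each start were searched. The NRF-1-like motif was in 7 of them, or 16.3%, against 4.23% of 27025 promoters of all genes. Besides Sdha, Sdhd and Cox6a1 these were Atp5c1, Atp5g2, Atp5h and Atp5k. The ETS-like motif was in 12, or 27.9%, against 7.83% of all promoters, and 16 genes had at least 1 of the pair of motifs. The TGACCTTGA motif was in Atp5g3 alone, 2.33% against 0.422%. The general promoter word CCAAT was in 22, or 51.2%, against 37.5%. No match of one motif overlapped a match of another, and a match describes letters only.

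Total counts per heart were 4478991 to 6015767 for peptide and 6397189 to 8310480 for antibody, and levels are given in CPM, counts relative to the library total after TMM scaling within each study. The defining genes of heart muscle were abundant in every heart, with 8 of them summing to 42550 to 90259 CPM in the first study and to 47764 to 59931 CPM in the antibody study. Of these 8, 6 were lower with Aβ42 (median log2 fold change -0.11) and 5 were lower with 3D6 (median -0.044). Hearts within a group differed in 2 respects that recur below. The share of counts on mitochondrially encoded genes was 12.9% to 22.2% in hearts of the peptide study and 25.9% to 37.8% in those of the antibody study. In the peptide study this share, also as a covariate, holds almost no counts of mt-Co2, mt-Co3, mt-Atp6 and mt-Atp8, whose levels are given with the uncertain genes. A list of 5 atrial marker genes summed to 12.4, 1158 and 8417 CPM (lowest, median and highest) with Aβ42 and to 3.82, 10.5 and 3665 CPM with ScrAβ42. With antibody it summed to 1.05, 98.5 and 668 CPM with 3D6 and to 0.821, 2.88 and 2776 CPM with the control antibody. The part of atrial tissue in the results was not tested beyond the covariate fits given below.

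Per kilobase of transcript, levels differed widely between the genes. In the peptide study the highest levels per kilobase were those of Atp5b, the catalytic beta subunit of the ATP synthase, at 3491 CPM per kilobase, and Atp5a1, its alpha partner, at 2189. They were followed by Cox6a2, the heart and muscle isoform of subunit 6A, at 1822 and Atp5g3 at 1802 CPM per kilobase. In the antibody study Cox6a2 came first at 2186, close to Atp5b at 2127, and Cox4i1, the ubiquitous form of the regulatory subunit 4, was next at 1366 CPM per kilobase. Several complex IV assembly factors and some isoforms known from other tissues were among the genes of low level. Cox18, which inserts a subunit into the membrane, was at 7.34 and 4.43 CPM per kilobase in the peptide and antibody studies, and Cox4i2, the second isoform of subunit 4, at 7.63 and 7.01. The plot of levels per kilobase by complex shows every gene.

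**Figure D1:**
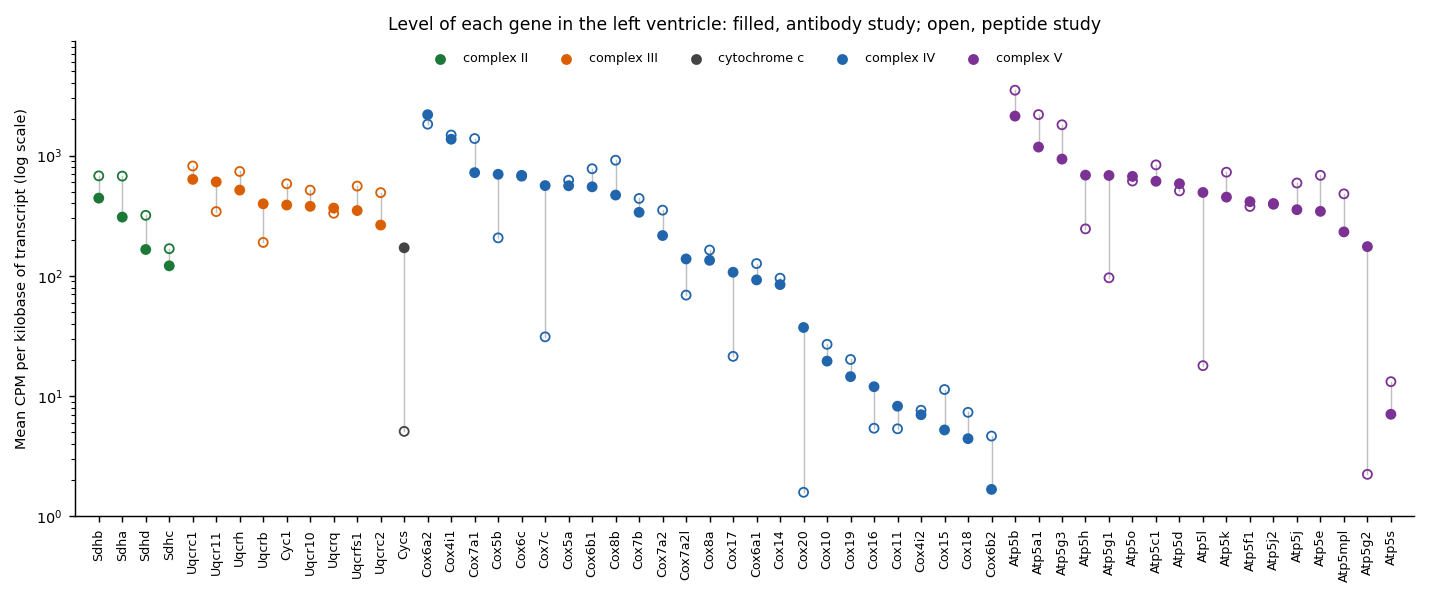
Mean level of each of the 56 genes over all hearts of a study, in CPM per kilobase of transcript on a log axis, grouped by complex. Atp5b and Cox6a2 lie at the top, at 3491 CPM per kilobase (peptide) and 2186 (antibody), and Cox18, an assembly factor, lies near the bottom.

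Some levels differed strongly between the studies and are uncertain. Mean CPM was more than 10 times higher in the antibody study for Atp5g2 (78.1 times), Cycs (33.6), Atp5l (27.5), Cox20 (23.4) and Cox7c (18.1), where Atp5l is a membrane subunit of the ATP synthase. All 5 have at least 1 annotated pseudogene copy of 95% or higher sequence identity, as do 17 of the 56 genes. Over those 17 the median ratio between the studies was 2.00, against 0.708 over the other 39. Mean CPM was over 2 times higher in the antibody study for 8 of the 17. It was so for 3 of the other 39, Cox17 (5.00 times), Cox5b (3.38) and Cox16 (2.21). The mitochondrially encoded mt-Co2, mt-Co3, mt-Atp6 and mt-Atp8 had at most 1 count in every heart of the peptide study, whereas each had at least 8250 counts in every heart of the antibody study. The tables were deposited separately and the cause was not tested, so levels were compared only within a study. Atp5g2 and Cox20 averaged under 10 counts in the peptide study, and Cox6b2 did so in the other, so 54 and 55 of the genes were tested, 53 of them in both.

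With Aβ42, expression of the 54 tested genes was lower than with ScrAβ42 more often than higher, by less than the SD between hearts of a group for each gene but Cox7a2l (0.092 on the log2 scale, SD 0.079). None passed the edgeR quasi-likelihood test with Benjamini-Hochberg adjustment over 11985 genes, where 0% of all genes did. None had an unadjusted p under 0.05 either, against 6.51% of all genes, and DESeq2 and limma-voom gave 0 of these genes on both counts. Over all genes DESeq2 had 0.1% under an adjusted and 6.1% under an unadjusted p of 0.05, and limma-voom 0% and 5.74%. The estimated level was lower for 40 of the 54, against 49.5% of all genes, and the median log2 fold change was -0.050 against 0.0015 over all genes. With 1 heart left out that median ran from -0.10 (without ScrAbeta42_3448) to 0.0049 (without ScrAbeta42_3449), and it was 0.0033 without Abeta42_3457 and 0.11 with the atrial score of each heart in the fit. The count of lower genes was 7 of 54 with the atrial score, and 26 without Abeta42_3457 or without ScrAbeta42_3449. Groups overlapped for every one of the 54 genes, as they did for nearly all genes, since 0.0918% of all genes tested had groups that did not.

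Complex II has 4 genes, and all 4 were lower with Aβ42, with a median log2 fold change of -0.058. Sdha (ENSMUSG00000021577, chr13:74322254-74350280 on the minus strand of GRCm38) was at 1138, 1930 and 2319 CPM (lowest, median and highest) in 7 Aβ42 hearts and at 1521, 2031 and 2309 CPM in 7 ScrAβ42 hearts. The low values came from Abeta42_3457 and ScrAbeta42_3448, and the remaining hearts lay together. Its log2 fold change was -0.09 with a standard error (SE) of 0.14. Without Abeta42_3457 the change was -0.0016, and without ScrAbeta42_3448 it was -0.15. Sdhb, the iron-sulphur subunit, was at 443, 773 and 942 CPM with Aβ42 and at 580, 798 and 967 CPM with ScrAβ42, a log2 fold change of -0.037 (SE 0.15). The membrane anchors Sdhc and Sdhd differed by -0.080 (SE 0.12) and -0.0090 (SE 0.13) on the log2 scale. The median over the 4 genes was 0.029 without Abeta42_3457, 0.0016 without ScrAbeta42_3449 and -0.12 without ScrAbeta42_3448. With the atrial score of each heart in the fit it was 0.15, and all 4 were higher.

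Among the 9 genes of complex III, 5 were lower and 4 higher with Aβ42, around a median of -0.10, which was 0.0018 without Abeta42_3457, -0.038 without ScrAbeta42_3449 and -0.15 without ScrAbeta42_3448. With the atrial score of each heart in the fit that median was 0.16, and all 9 were higher. Cyc1, the haem-bearing subunit that hands electrons to cytochrome c, was at 493, 853 and 1029 CPM with Aβ42 and at 686, 923 and 1183 CPM with ScrAβ42, a log2 fold change of -0.14 (SE 0.15). Uqcrc1, a core subunit, was at 716, 1401 and 1704 CPM against 1005, 1425 and 1767 CPM, a difference of -0.10 (SE 0.17). Uqcrfs1, the Rieske iron-sulphur protein, differed by 0.0038 (SE 0.13), and its groups covered 517 to 885 and 574 to 970 CPM. The accessory subunit Uqcr10 was among the 3 genes of lower level with the smallest p, at 167, 225 and 246 CPM with Aβ42 and 191, 231 and 288 CPM with ScrAβ42 (log2 fold change -0.12, SE 0.10, unadjusted p = 0.257 in edgeR). The lowest and highest hearts of both groups thus interleaved. Cycs, cytochrome c itself, was counted at only 12.4 to 17.3 CPM with Aβ42 and 11.4 to 20.3 CPM with ScrAβ42 and is one of the uncertain genes.

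Complex IV gave both the highest and the lowest fold changes. Of its 24 tested genes 17 were lower with Aβ42, at a median of -0.068. That median was -0.017 without Abeta42_3457, -0.019 without ScrAbeta42_3449 and -0.12 without ScrAbeta42_3448. The lower genes comprised 11 of 15 subunits and 6 of 8 assembly factors, while Cox7a2l, classed here as a supercomplex factor, was higher. With the atrial score of each heart in the fit the median was 0.091, and 19 of the 24 genes were higher. Cox8a, the ubiquitous isoform of subunit 8 (ENSMUSG00000035885, chr19:7215153-7217616 on the minus strand of GRCm38), had the smallest p of all the genes, 0.0866 unadjusted and 0.785 adjusted in edgeR. It was at 88.3, 93.1 and 108 CPM with Aβ42 and at 63.6, 86.3 and 101 CPM with ScrAβ42, a log2 fold change of 0.15 (SE 0.083). All 7 Aβ42 hearts lay above the ScrAβ42 median, and ScrAbeta42_3448 and ScrAbeta42_3449 reached into their range. Cox7a2l was at 70.8, 77.0 and 79.8 CPM against 64.9, 72.8 and 80.0 CPM (log2 fold change 0.092, SE 0.054), with 6 of 7 Aβ42 hearts above the control median. Without ScrAbeta42_3449, Cox8a was at 0.20 (unadjusted p = 0.0247, adjusted 0.816 in edgeR) and Cox7a2l at 0.12 (unadjusted p = 0.0337), where 5.97% of all genes had an unadjusted p under 0.05. Over all fits with 1 heart left out, Cox8a ran from 0.092 to 0.20 and Cox7a2l from 0.068 to 0.12.

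The other isoforms of complex IV mostly lay on the lower side. Cox4i2 had the largest difference, at 3.37, 5.03 and 6.83 CPM with Aβ42 and 4.59, 5.97 and 7.16 CPM with ScrAβ42, a log2 fold change of -0.29 (SE 0.17, unadjusted p = 0.113 in edgeR). It is a gene of low level, and its groups overlapped over most of their range. Cox6a2 was at 760, 1238 and 1522 CPM against 959, 1367 and 1423 CPM (-0.088, SE 0.13), with 6 of 7 Aβ42 hearts below the control median. Cox8b, the heart and muscle isoform of subunit 8, was at 212, 343 and 372 CPM against 245, 366 and 389 CPM (-0.096, SE 0.13). Cox7a1, the heart and muscle isoform of subunit 7A, lay on the other side at 0.043 (SE 0.16), and its ubiquitous counterpart Cox7a2 at -0.051 (SE 0.098). Cox4i1 and Cox5a were at -0.044 (SE 0.14) and -0.092 (SE 0.13), and Cox6a1 was at 0.031 (SE 0.14). With 1 heart left out, Cox6a2 ran from -0.15 to -0.0027, Cox8b from -0.16 to -0.018 and Cox5a from -0.15 to -0.0086. Each was nearest 0 without Abeta42_3457.

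Among the assembly factors, Cox15, which makes haem A, was the third of the genes of higher level by p, at 47.0, 56.2 and 63.9 CPM with Aβ42 and 43.7, 54.1 and 61.6 CPM with ScrAβ42 (log2 fold change 0.050, SE 0.086). Cox10, which acts just before it in the same synthesis, was at -0.13 (SE 0.16). Cox11, which delivers copper, was at -0.14 (SE 0.16), and the copper chaperone Cox17 at 0.044 (SE 0.10). Cox16 was at 3.30, 3.87 and 5.06 CPM against 2.71, 4.95 and 6.20 CPM, with 6 of 7 Aβ42 hearts below the control median. The groups overlapped for all of these factors.

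In complex V, 14 of 16 tested genes were lower with Aβ42, at a median of -0.040. All 5 subunits of F1, the catalytic head, and all 4 of the peripheral stalk were on the lower side, as against 2 of 4 membrane subunits. Atp5a1 was at 3182, 5261 and 6167 CPM with Aβ42 and at 4011, 5376 and 6321 CPM with ScrAβ42, a log2 fold change of -0.055 (SE 0.14). Atp5b was at 4399, 6306 and 7210 CPM against 5026, 6396 and 7304 CPM (-0.034, SE 0.12), and Atp5c1, the gamma subunit that turns inside the head, was at -0.017 (SE 0.13). In each of these genes Abeta42_3457 and ScrAbeta42_3448 gave the lowest value of their groups. Atp5g1, a c-ring gene, was the third gene of lower level by p, at 67.2, 104 and 115 CPM against 92.0, 95 and 145 CPM (-0.14, SE 0.13), and Atp5g3 was at -0.028 (SE 0.15). The median over the complex V genes was 0.026 without Abeta42_3457, 0.013 without ScrAbeta42_3449 and -0.091 without ScrAbeta42_3448 or without Abeta42_3456. With the atrial score of each heart in the fit it was 0.13, and 14 of the 16 genes were higher, all F1 and peripheral stalk subunits among them.

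**Figure D2:**
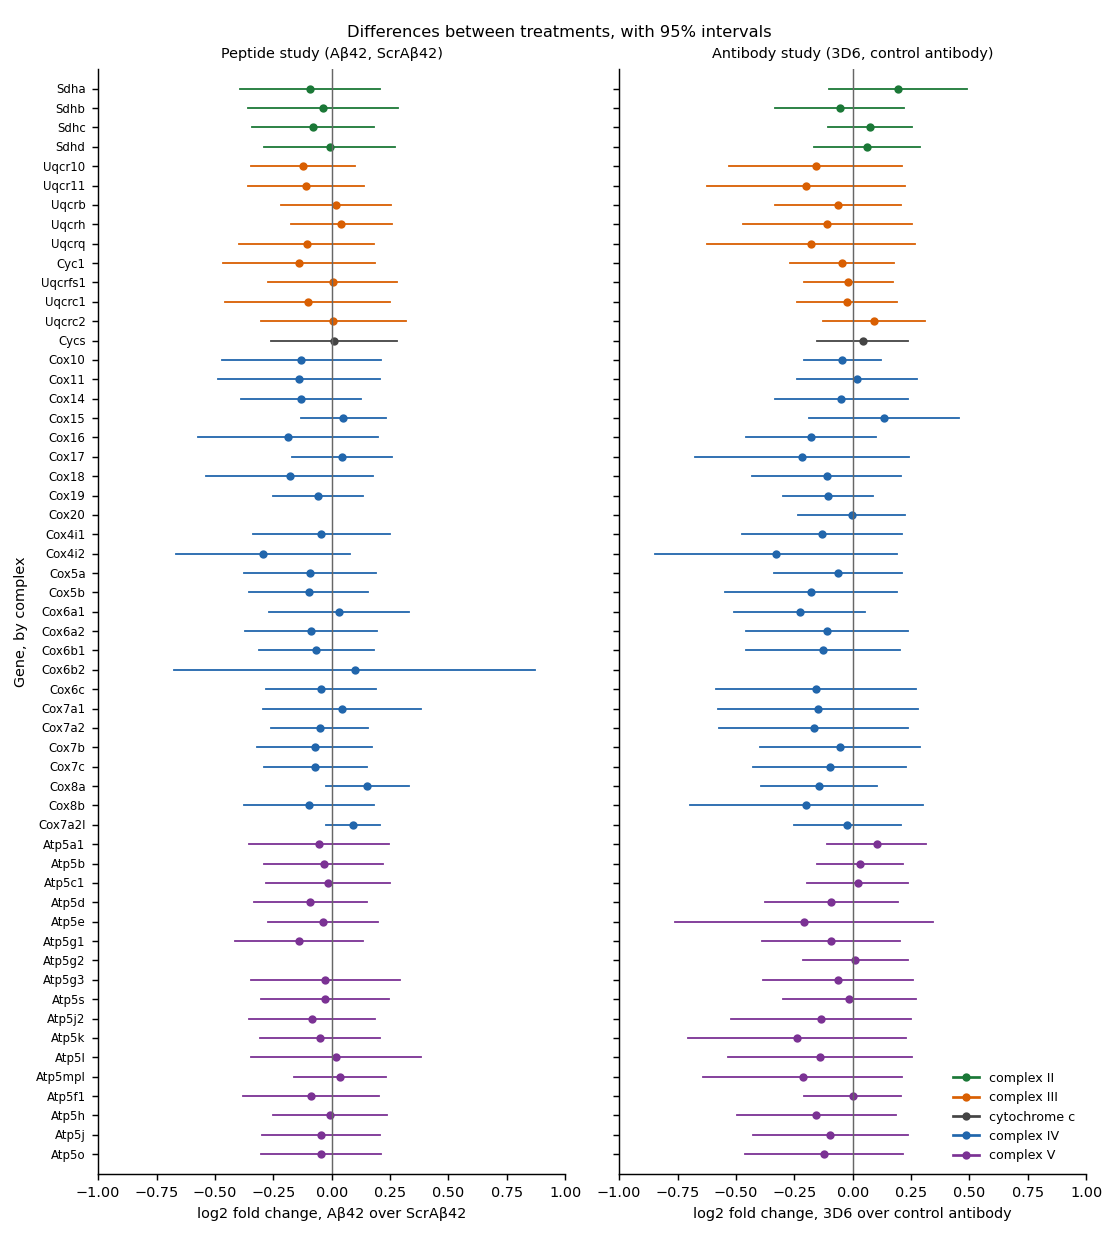
Log2 fold change of each tested gene with its 95% confidence interval, by complex, for Aβ42 against ScrAβ42 and for 3D6 against control antibody. Points lie between -0.29 and 0.15 with Aβ42 and between -0.33 and 0.19 with 3D6, and every interval holds 0.

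With 3D6, genes of the chain were again mostly lower than in the control group and again within the spread between hearts. Medians of complexes III, IV and V were below 0 and that of complex II above it, whereas all 4 were above 0 under both of the following alternatives. With the mitochondrial share of each heart in the fit, the medians were 0.066, 0.054, 0.060 and 0.066 for complexes II, III, IV and V. Relative to genes of like length, an alternative added after the data were seen, they were 0.11, 0.0061, 0.0037 and 0.013. None of the 55 tested genes passed the edgeR quasi-likelihood test with Benjamini-Hochberg adjustment over 12274 genes, where 0% of all genes did. None had an unadjusted p under 0.05, against 3.64% of all genes, and DESeq2 and limma-voom gave 0 on both counts, with 3.67% and 3.57% of all genes under an unadjusted p of 0.05 and 0% under an adjusted one. The estimated level was lower for 44 of the 55 and higher for 11, against 52.6% of all genes lower (64.5% when scaled to the total count), and the median log2 fold change was -0.096 against -0.0098 over all genes. The number of higher genes was 26 without Con_22, 22 without 3D6_7 and 18 without 3D6_12. It was 46 with the mitochondrial share. The median over the genes was -0.0037 without Con_22, -0.15 without Con_8 and 0.063 with the mitochondrial share. With the atrial score it was -0.057, and 40 of the 55 genes were lower.

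In complex II, 3 of 4 genes were higher with 3D6, at a median of 0.068, which was 0.035 without Con_22 and 0.11 without 3D6_7. Sdha was at 841, 951 and 1149 CPM in 8 hearts given 3D6 and at 410, 850 and 1047 CPM in 8 control hearts. The lowest control value, 410 CPM, was that of Con_22, whereas the next was 753 CPM. The log2 fold change was 0.19 (SE 0.14, unadjusted p = 0.187, adjusted 0.946 in edgeR), 7 of 8 hearts given 3D6 exceeded the control median, and without Con_22 the change was 0.10. Sdhb was at 343, 531 and 600 CPM against 374, 518 and 656 CPM, a log2 fold change of -0.056 (SE 0.13). Sdhc, at 259, 312 and 364 CPM against 259, 295 and 329 CPM, and Sdhd, at 164, 209 and 248 CPM against 143, 212 and 227 CPM, differed by 0.074 (SE 0.085) and 0.061 (SE 0.11) on the log2 scale.

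In complex III, 8 of 9 genes were lower with 3D6, and all 5 accessory subunits were among them. The median of -0.063 was 0.0013 without 3D6_7, -0.016 without 3D6_12, -0.011 without Con_22 and -0.12 without Con_8. Uqcrc2, a core subunit, was the exception at 0.091 (SE 0.10), with 411, 514 and 570 CPM against 320, 495 and 543 CPM. Its lowest control heart was again Con_22, the next being at 447 CPM, and without that heart the change was 0.029. The partner core subunit Uqcrc1 was at 804, 1082 and 1195 CPM against 831, 1099 and 1213 CPM (-0.024, SE 0.10). Cyc1 and Uqcrfs1 were at -0.045 (SE 0.11) and -0.019 (SE 0.091). Uqcr11, a small accessory subunit, was at 163, 262 and 365 CPM against 160, 279 and 514 CPM (-0.20, SE 0.20). Cycs, which was counted at 383 to 572 CPM with 3D6 and 422 to 517 CPM with the control antibody, differed by 0.042 (SE 0.094).

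In complex IV, 22 of 24 genes were lower with 3D6, at a median of -0.12 (-0.013 without Con_22 and -0.19 without 3D6_24), including all 14 tested subunits and 7 of 9 assembly factors. Cox6a1 (ENSMUSG00000041697, chr5:115345642-115348981 on the minus strand of GRCm38) had the smallest p, 0.107 unadjusted and 0.946 adjusted in edgeR, at 35.5, 49.8 and 58.2 CPM with 3D6 and 40.8, 55.7 and 84.7 CPM with the control antibody. Con_22 gave the highest of the control values, ahead of 59.5 CPM. The log2 fold change of -0.23 (SE 0.13) was -0.12 without Con_22 and -0.28 without Con_8 (unadjusted p = 0.0399, adjusted 0.699 in edgeR, with 6.28% of all genes under 0.05). Cox4i2 was at 2.40, 4.65 and 5.95 CPM against 2.43, 5.14 and 10.7 CPM (-0.33, SE 0.25, unadjusted p = 0.198 in edgeR), and at -0.13 without Con_22. Cox16 was at 6.92, 9.09 and 11.6 CPM against 6.86, 10.8 and 12.9 CPM (-0.18, SE 0.13), with 7 of 8 hearts given 3D6 below the control median. Cox8a, the higher gene with Aβ42, was at 56.1, 71.4 and 91.2 CPM against 59.4, 77.2 and 104 CPM (-0.14, SE 0.12).

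The heart and muscle isoforms of complex IV lay on the same side with 3D6 as their ubiquitous counterparts. Cox6a2 was at 1002, 1492 and 1854 CPM against 1021, 1482 and 2403 CPM (-0.11, SE 0.17), and Cox8b at 87.4, 167 and 258 CPM against 83.2, 184 and 318 CPM (-0.20, SE 0.24). Cox7a1 and Cox7a2 were at -0.15 (SE 0.20) and -0.17 (SE 0.19). Their group medians lay close together, and the highest value of each gene was that of a control heart. Cox4i1 and Cox5a were at -0.13 (SE 0.16) and -0.063 (SE 0.13). Without Con_22, Cox8b was at -0.030, Cox7a2 at -0.010 and Cox4i1 at -0.019, and Cox6a2 (0.013), Cox7a1 (0.0060) and Cox5a (0.014) were on the higher side. The furthest values with 1 heart left out were -0.34 for Cox8b, -0.28 for Cox7a2 and -0.20 for Cox4i1. The factors on the higher side were Cox15 (0.13, SE 0.15) and Cox11 (0.019, SE 0.12), where Cox15 was at 21, 25.9 and 32.3 CPM against 11.7, 23.8 and 32.4 CPM.

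In complex V, 13 of 17 genes were lower with 3D6, at a median of -0.094 (0.0014 without Con_22 and -0.16 without Con_8). Of the F1 subunits, Atp5a1, Atp5b and Atp5c1 were higher and the small central-stalk subunits Atp5d and Atp5e lower, whereas all 4 membrane subunits and all 4 peripheral stalk subunits were lower. Atp5a1 was at 2530, 2920 and 3078 CPM with 3D6 and at 1747, 2734 and 3127 CPM with the control antibody (0.10, SE 0.10), with 7 of 8 hearts given 3D6 higher than the control median. Con_22 gave the value of 1747 CPM, the next control heart being at 2611 CPM, and without Con_22 the log2 fold change was 0.039. Atp5b was at 3161, 3931 and 4571 CPM against 3177, 3820 and 4180 CPM (0.030, SE 0.088), and Atp5c1 at 0.021 (SE 0.10). Atp5e was at 82.8, 150 and 224 CPM against 71.1, 139 and 353 CPM (-0.21, SE 0.26), and Atp5k, which holds ATP synthase dimers together as subunit e, at -0.24 (SE 0.22). Of the c-ring genes, Atp5g1 was at -0.094 (SE 0.14), Atp5g2 at 0.012 (SE 0.11) and Atp5g3 at -0.064 (SE 0.15).

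The intervals show how large a difference these groups could have missed. The 95% confidence interval of the fold change lay within 1.5-fold of no difference for 52 of 54 genes with Aβ42 and 46 of 55 with 3D6, and within 2-fold for all 54 and all 55. It lay within 1.25-fold for 24 and 18 genes. For Sdha the interval on the log2 scale ran from -0.39 to 0.21 with Aβ42 and from -0.10 to 0.49 with 3D6. For Atp5b it ran from -0.29 to 0.22 and from -0.15 to 0.21.

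Side by side, 33 of the 53 genes tested in both studies, or 62.3%, were on the lower side of both comparisons, against 24.3% of 11361 genes. Taken alone, 40 of 54 and 44 of 55 genes were lower, so a large share lower in both follows from those counts. The directions also moved with the fit. With Aβ42, 26 of 54 were lower without Abeta42_3457 or without ScrAbeta42_3449, and 7 with the atrial score. With 3D6, 29 of 55 were lower without Con_22 and 9 with the mitochondrial share. The studies share no mice, but genes of a heart vary together, so the 33 are not separate agreements. Another 7 genes, or 13.2% against 26.0% of all genes, were lower with Aβ42 and higher with 3D6: Sdha, Sdhc, Sdhd, Cox11, Atp5a1, Atp5b and Atp5c1. These held 3 of the 4 genes of complex II, 3 of the 16 of complex V, 1 of the 23 of complex IV and none of the 9 of complex III. Some of these values lay near 0, such as Sdhd (-0.0090) and Atp5c1 (-0.017) with Aβ42, and Cox11 (0.019) and Atp5c1 (0.021) with 3D6. Leaving out 1 heart turned the sign of Sdhd, Atp5a1, Atp5b and Atp5c1 with Aβ42 and of Atp5b and Atp5c1 with 3D6. Sdha and Sdhc kept their signs, and Cox11 was not checked. A further 10 genes, or 18.9% against 27.6% of all genes, were higher with Aβ42 and lower with 3D6, among them Cox8a, Cox6a1 and Cox7a2l. The remaining 3, Uqcrc2, Cycs and Cox15, or 5.66% against 22.1%, were on the higher side of both. The difference between complexes was not tested, and no gene passed the test in either comparison.

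With every heart kept, the direction with 3D6 went with the length of the transcript. Across the 55 genes, the log2 fold change and the length had a Spearman rho of 0.726, given as a description over genes of the same 16 libraries, which are not independent. All 14 genes under 600 nt were lower with 3D6, at a median of -0.16, and 18 of 19 between 600 and 1000 nt were, at a median of -0.13. Of 16 genes between 1000 and 2000 nt 11 were lower, at a median of -0.021, and of 5 between 2000 and 3000 nt, Sdha and Sdhc among them, 1 was, at a median of 0.074. Other genes had medians of -0.15 under 600 nt and -0.11 between 600 and 1000 nt, close to these genes, where 81.9% and 82.5% of them were lower. Their medians were -0.050 between 1000 and 2000 nt and -0.0046 between 2000 and 3000 nt, with 64.1% and 51.6% lower, and 0.021 over 3000 nt, where Cox15 was at 0.13. Over all 12091 other genes rho was 0.232. With the median of the 200 other genes nearest in length taken off each value, 34 of the 55 genes were on the higher side. That alternative was added after the data were seen. Con_22 was itself divided by length. Relative to the study's mean, its genes under 1000 nt lay at 0.74 and its longer ones at -0.14 on the log2 scale. Without Con_22, 29 of the 55 genes were lower with 3D6, and the slope was not computed without that heart. With Aβ42, rho was -0.19 over 54 genes and -0.0081 over the others, and the shortest genes were divided 7 to 7.

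**Figure D3:**
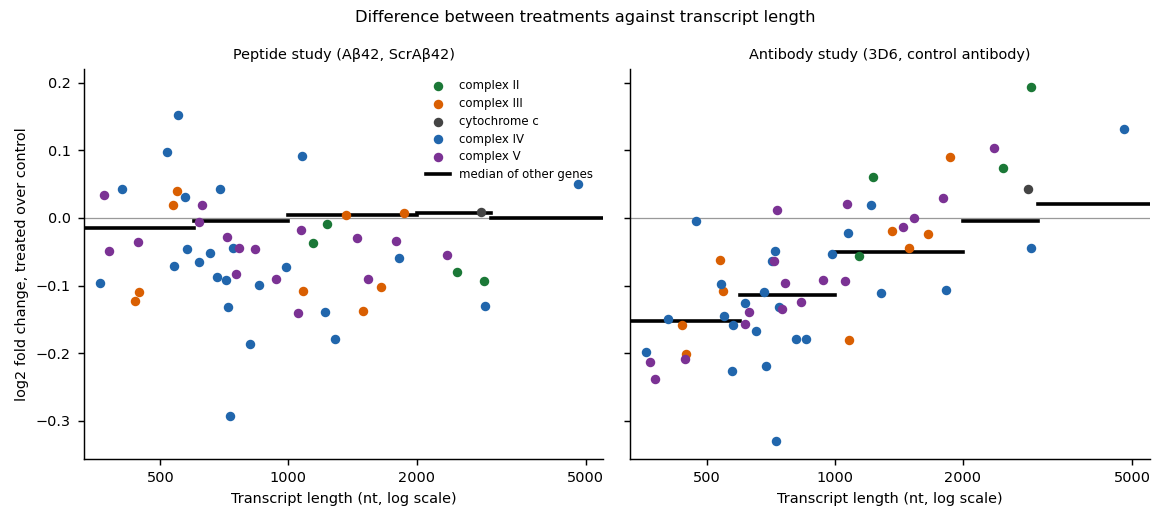
Log2 fold change against transcript length in nt (log axis) for each gene, in the peptide and the antibody study, with lines at the median of other genes of like length. Values are from the fits with every heart kept. In the antibody study all 14 genes under 600 nt lie below 0, near the line for other genes of that length at -0.15. In the peptide study no such slope appears.

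The genes varied together from heart to heart. Within groups, the median Pearson correlation between pairs of the genes was 0.81 over 1431 pairs and 14 hearts given peptide and 0.77 over 1485 pairs and 16 hearts given antibody, which describes pairs that share libraries, depth and scaling. Among peptide hearts it was 0.95 within complex II, 0.92 within complex III and 0.90 within complex V, and 0.41 within complex IV. Cox8a stood apart, with a median correlation of -0.081 with the other genes, followed by Cox6b2 (0.089), Cox7c (0.099) and Cox6a1 (0.11). Among antibody hearts complex II was the least coherent at 0.43, with complex III at 0.84, complex IV at 0.69 and complex V at 0.86. The genes least like the others there were Cox15 (-0.69) and Sdha (-0.58), followed by Cox18 (-0.25) and Atp5a1 (-0.14).

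A few hearts stood apart from the others of their group. In the peptide study the mean log2 CPM of the genes, set against the mean of all 14 hearts, was -0.42 in Abeta42_3457 and -0.26 in ScrAbeta42_3448, and it was 0.36 in ScrAbeta42_3449. Only 8 of the 54 genes were above the study's median in Abeta42_3457 and 3 in ScrAbeta42_3448, as against 53 in ScrAbeta42_3449. That count was also low in Abeta42_3455 (4), ScrAbeta42_3445 (7), Abeta42_3458 (9) and ScrAbeta42_3442 (11), so it does not set the first 2 hearts apart. Abeta42_3457 and ScrAbeta42_3448 also had the lowest mitochondrial shares, 12.9% and 13.8%, and high atrial scores, 9.21 and 8.13 (the mean log2 CPM of the tested atrial markers, 5 in the peptide study and 4 in the other). Abeta42_3455, whose atrial score was the highest at 9.53, came next at -0.17. The 54 genes summed to 20640, 32545 and 36816 CPM with Aβ42 and to 24736, 33210 and 38723 CPM with ScrAβ42, so the sums overlapped over most of their range. Without Abeta42_3457 and ScrAbeta42_3448, an alternative added after the data were seen, 38 of the 54 genes were lower with Aβ42. With the mitochondrial share of each heart in the fit 42 were lower, at a median of -0.070. With the atrial score 7 were lower, at a median of 0.11. The part of atrial tissue and of the mitochondrial share in the lower levels was not tested beyond these fits.

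After antibody the mean was -0.42, -0.35 and -0.24 in 3D6_7, 3D6_12 and 3D6_4 and -0.38 in Con_8, and 0.39 in Con_22. Con_22 was divided by length, with the 33 genes under 1000 nt at a mean of 0.74 and the 22 longer ones at -0.14. It also had the lowest mitochondrial share of the study, 25.9%, while 3D6_4 and Con_8 had the highest, 37.8% and 37.7%. The 55 genes summed to 18572, 25050 and 29541 CPM with 3D6 and to 18987, 25354 and 29780 CPM with the control antibody. The map of every gene in every heart shows these hearts as whole columns, and the plot of the heart means shows how they lie against mitochondrial share and atrial score.

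**Figure D4:**
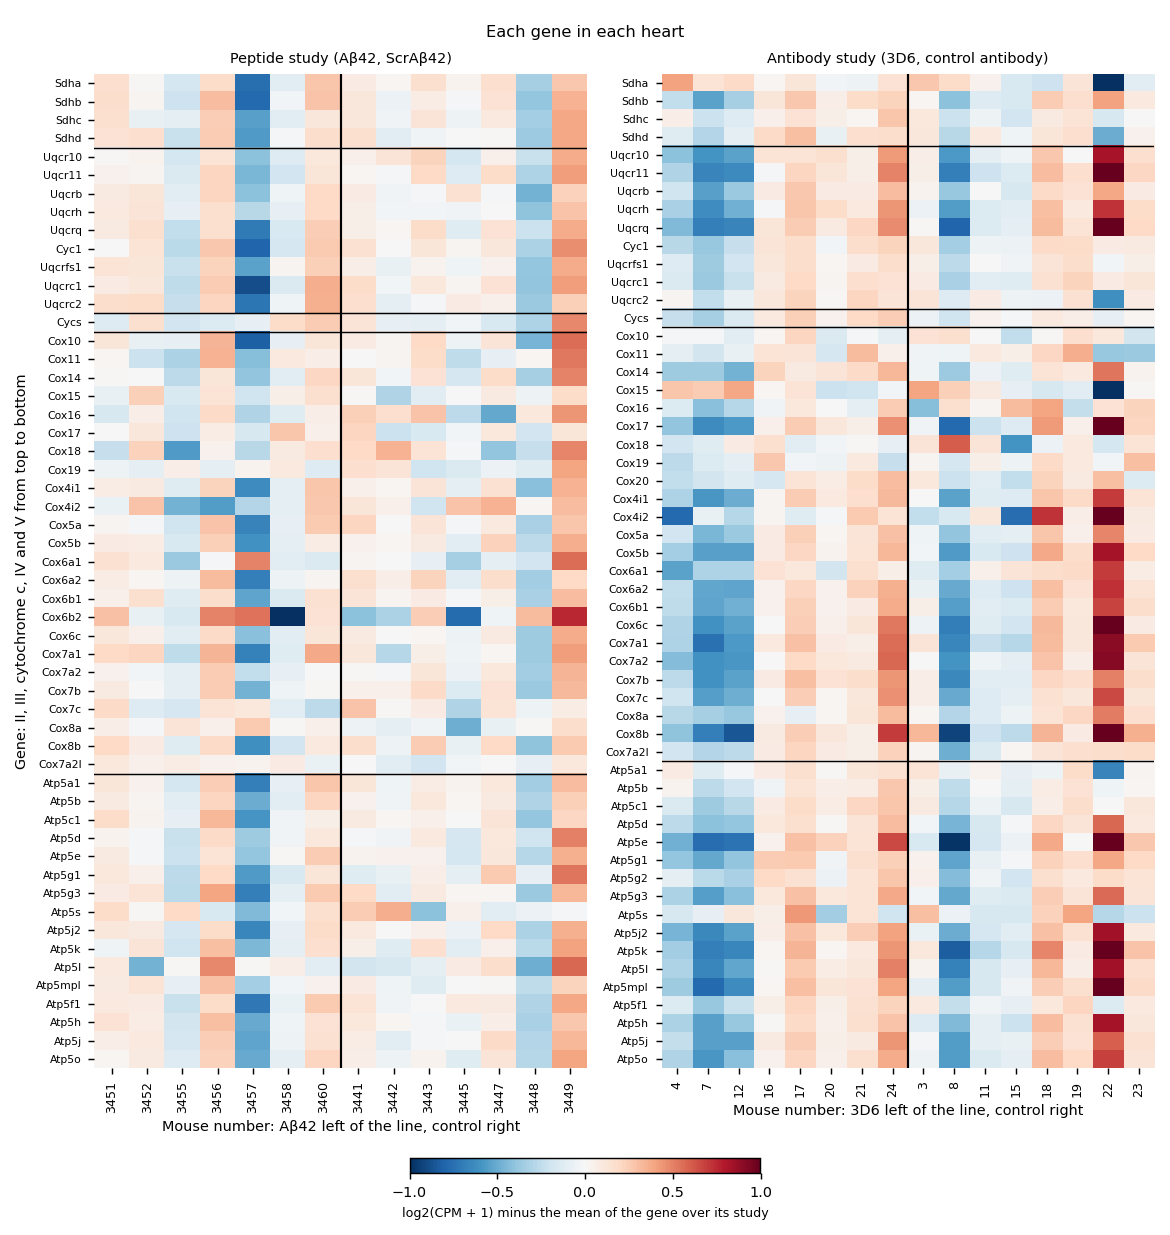
Log2(CPM + 1) of each gene (rows, by complex) in each heart (columns, by group and mouse number), relative to the gene's mean over the hearts of its study. Abeta42_3457 and ScrAbeta42_3448 are low columns and ScrAbeta42_3449 a high one, and Con_22 is high for short genes and low for Sdha.

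**Figure D5:**
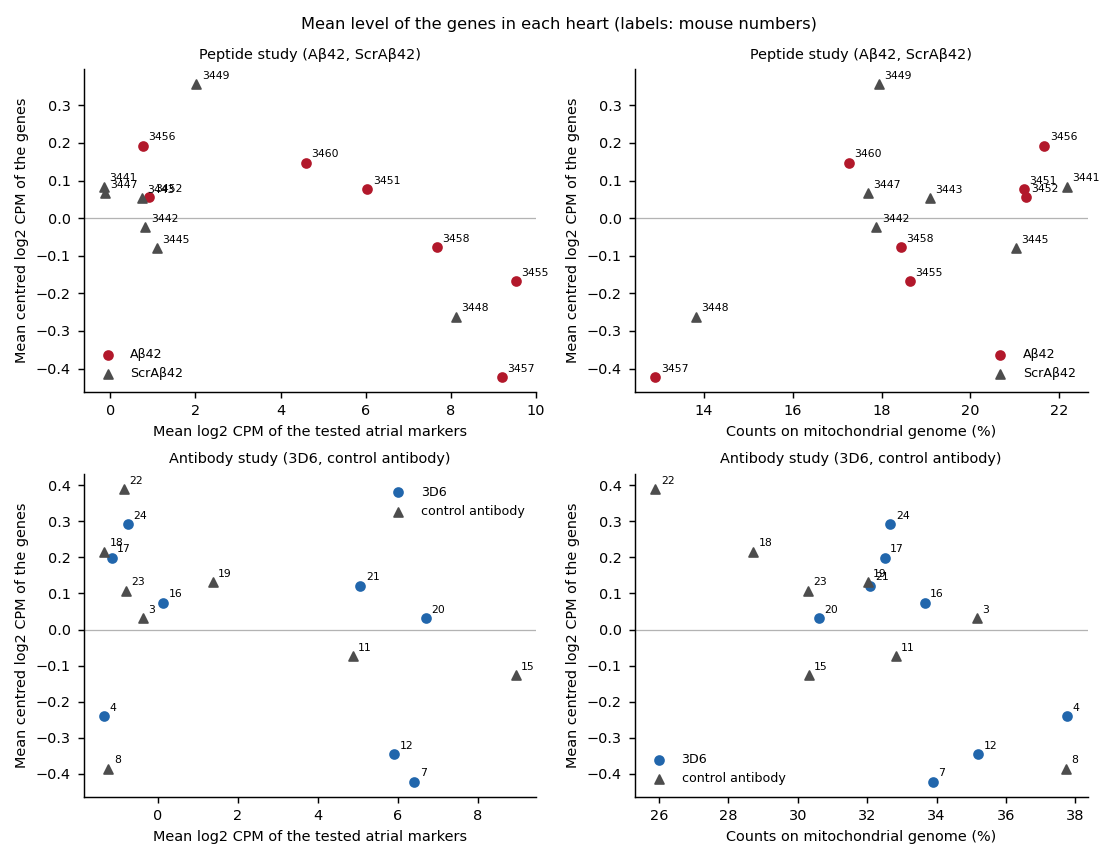
Mean log2 CPM of the genes in each heart, relative to the mean of its study, against the percent of counts on mitochondrially encoded genes and against the atrial score, for both studies, with 1 point per heart. In the peptide study the lowest points are Abeta42_3457 (-0.42) and ScrAbeta42_3448 (-0.26), at mitochondrial shares of 12.9% and 13.8%, and in the antibody study the highest point is Con_22 (0.39) at 25.9%.

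Where the heart has a choice of isoforms, shares within a library do not depend on scaling between libraries. From CPM per kilobase, Cox6a2 made up 92.9% ± 2.94 (SD, n = 7) of Cox6a expression with Aβ42 and 93.7% ± 1.05 (n = 7) with ScrAβ42, and 96.0% ± 0.571 (n = 8) with 3D6 and 95.7% ± 0.451 (n = 8) with the control antibody. Cox8b made up 83.2% ± 3.90 of subunit 8 expression with Aβ42 and 85.7% ± 2.49 with ScrAβ42. It lay between 75.0% and 85.9% with Aβ42 and between 80.5% and 88.1% with ScrAβ42, and no Aβ42 heart was above the control median. In an exact two-sided permutation test the difference of -2.49 percentage points gave p = 0.182, and 0.571 after adjustment over 14 shares, and without Abeta42_3457 it was -1.12. With 3D6 and control antibody the Cox8b share was 76.4% and 76.8%. Cox7a1 made up 79.7% and 79.1% of subunit 7A expression with Aβ42 and ScrAβ42 and 77.0% and 76.6% with 3D6 and control antibody. Cox4i2 stayed under 1% of subunit 4 expression in every heart, at 0.478% and 0.564% with Aβ42 and ScrAβ42 and at 0.484% and 0.531% with 3D6 and control antibody.

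The 3 c-ring genes encode the same mature protein with different import sequences. After antibody, Atp5g3 supplied 52.1% ± 1.72 of their summed expression with 3D6 and 51.9% ± 1.70 with the control antibody (n = 8 each), Atp5g1 37.7% and 38.5%, and Atp5g2 10.2% and 9.60%. After peptide, Atp5g3 appeared to supply 94.9% and 94.6%, a share that rests on the uncertain counts of Atp5g1 and Atp5g2. None of the 14 shares passed the exact permutation test, the smallest adjusted p being 0.571.

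The antibody study was counted by transcript, and most of the genes used 1 transcript. The 56 genes have 249 annotated transcripts, and the most abundant one took over 90% of a gene's counts in 40 genes, with a median of 97.2%. It was protein coding in all 56. Sdha-201 took 99.3% of Sdha and Cox8a-201 all of Cox8a. Atp5j2, which encodes subunit f, was divided nearly evenly between 2 coding transcripts (50.6% and 48.9%), Uqcrq, an accessory subunit of complex III, between 60.9% and 36.9%, and Sdhc between 71.1% and 28.9%. Noncoding transcripts took over 10% in 6 genes, among them Cox19, a complex IV assembly factor, with 32.9% on a processed transcript, and Atp5f1, subunit b of the peripheral stalk, with 19.3% on a transcript annotated for nonsense-mediated decay. These shares are estimates of the authors' quantifier and were not compared between groups.

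The lists outside the naming rule show where the rest of the chain lay. Of 37 nuclear subunits of complex I, 32 were lower with Aβ42 (median -0.062) and 34 with 3D6 (median -0.13). Other assembly factors were lower in 6 of 10 and 5 of 10 for complexes II and III, 12 of 16 and 10 of 17 for complex IV, and 3 of 6 and 4 of 6 for complex V, with Aβ42 and 3D6 respectively. The mitochondrially encoded genes of complexes III to V were all on the higher side, 2 of 2 with Aβ42 and 6 of 6 with 3D6, the latter at a median of 0.14. Of 13 upstream regulators, 8 were lower with Aβ42 and 4 with 3D6. Ppargc1b, a coactivator of these genes, was at -0.37 (unadjusted p = 0.0584 in edgeR) with Aβ42, and its better known relative Ppargc1a at -0.19 with Aβ42 and 0.28 with 3D6. No gene of these lists had an unadjusted p under 0.05 in either comparison.

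Markers of other tissues also differed in level between the hearts of the peptide study, none with an adjusted p under 0.05. All 5 atrial markers were higher with Aβ42, of which Bmp10 had an unadjusted p under 0.05 (0.00242, adjusted 0.639 in edgeR) at 0.580 CPM in the median Aβ42 heart and 1209 CPM in the highest. All 5 red cell genes were lower, at a median log2 fold change of -1.37. All 6 tested adipocyte genes were higher, of which Plin1, a coat protein of fat droplets, and Ucp1, the uncoupling protein of brown fat, had unadjusted p of 0.0477 and 0.00114 in edgeR. Ucp1 was at 0.375 CPM in the median Aβ42 heart and 248 CPM in the highest, and at most 0.194 CPM with ScrAβ42. Fast skeletal muscle genes were lower in 7 of 8. In the antibody study all 4 tested atrial markers and all 5 red cell genes were lower with 3D6 by fold change, with none under 0.05. The atrial score per heart went the other way, with a median of 2.60 with 3D6 and -0.58 with the control antibody, while the highest score of the study, 8.96, was that of Con_15. The part of these tissues in the values above was not tested, apart from the atrial score as a covariate. In that fit complex medians with Aβ42 were 0.15 for complex II, 0.16 for complex III, 0.091 for complex IV and 0.13 for complex V, and Uqcrb (0.22, unadjusted p = 0.0325), Uqcrh (0.20) and Atp5mpl (0.18) had an unadjusted p under 0.05 in edgeR, with adjusted p of at least 0.602. In the same fit 7.48% of all genes had an unadjusted p under 0.05, a higher share than 3 of 54.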

How the data were processed

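Left ventricles of 30 mice were compared in 2 studies. Per the labels and the study's methods, the authors mapped reads with Salmon to the GENCODE vM24 transcriptome of GRCm38. The authors deposited whole-number counts for 49671 genes in the peptide study, and how transcripts were summed is not given in the sources used here. For the antibody study they deposited estimated counts for 142647 transcripts. These were summed here to 56386 features through GENCODE vM21 of GRCm38 and rounded. A transcript that this annotation does not list was kept as a feature of its own. Such features count among all genes tested where they passed the minimum. The annotation lists 99.48% of the genes and 99.21% of the transcripts, and 0.38% of estimated counts lay on transcripts it does not list. No count was normalized. Of the peptide columns 1 matched no labelled mouse and was not used.

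Each study was fitted separately in edgeR 4.0.16 (R 4.3.3) on genes averaging 10 counts or more, with TMM scaling, the quasi-likelihood test, two-sided, and Benjamini-Hochberg adjustment over all genes tested. Mean levels are TMM-scaled CPM, and log2 CPM used a prior count of 2. Replicates are separate mice. Isoform shares were compared with exact two-sided permutation tests (scipy 1.17.1). Near-identical copies were sought among annotated pseudogenes with BLAST 2.17.0 at 95% identity over at least 50% of the shorter transcript. Promoters came from RefSeq. Alternatives were DESeq2 1.42.0, limma-voom (limma 3.58.1), scaling by DESeq2's method in edgeR (RLE) or by the total count, no filter or 10 counts in every heart, atrial score or mitochondrial share as covariates, and leaving out each heart. The fit was tested on simulated data.

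Named genes were 23 fixed core genes, per comparison the 3 higher and 3 lower genes of smallest p, genes with over 10-fold different levels between tables, and genes of other lists with an unadjusted p under 0.05. Assembly factors, the remaining subunits and other transcripts were named in addition after their values were seen. The genes and lists were chosen with earlier results of these data known.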

Additional observations from a re-analysis of the deposited data

Results flagged for a closer look

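In 12 of 144 groups of values examined, 1 heart lay far from the others of its group by Dixon's criterion, where chance alone gives about 1 in 20 of independent groups. These groups share 30 hearts and genes that vary together, so that rate is no measure of chance for the count. Of the 12, 6 were in the same heart, Con_22. In that heart Sdha was at 410 CPM, the lowest of 8 control hearts, with the next at 753 CPM. Atp5a1 was at 1747 CPM with the next at 2611, and Uqcrc2 at 319.5 CPM with the next at 447. The short genes lay at the other end in the same heart, with Cox6a1 at 84.7 CPM where the next was 59.5, and Cox7a2 at 256 CPM where the next was 165. Its Atp5g3 share of c-ring expression was 55.7%, ahead of 52.5%.

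In the peptide study Abeta42_3457 had the lowest shares of heart and muscle isoforms among Aβ42 hearts, with Cox6a2 at 86.4% of Cox6a where the next was 93.2%, and Cox8b at 75.0% of subunit 8 where the next was 82.4%. ScrAbeta42_3448 had the lowest Cox8b share of its group, 80.5% with the next at 85.1%, and the lowest Atp5c1, 678 CPM with the next at 880. Cox6a1 was highest in ScrAbeta42_3449 among ScrAβ42 hearts, at 105 CPM where the next was 72.4. Cox7a2l was lowest in Abeta42_3460 among Aβ42 hearts, at 70.8 CPM where the next was 76.1. The cause of these values was not tested.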

How the results depend on the processing

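No gene of complexes II to V had an adjusted p under 0.05 under any alternative run in either study. Over all genes, DESeq2 called 12 with Aβ42 where edgeR called 0, and leaving out 1 heart gave 0 to 3 (3 without Abeta42_3452, 1 without ScrAbeta42_3448). Unadjusted p under 0.05 was reached by 3 of the 54 genes with the atrial score as a covariate with Aβ42 (7.48% of all genes), by 0 to 2 when 1 heart was left out there (2 without ScrAbeta42_3449, 1 without Abeta42_3452 or Abeta42_3460, with 5.97%, 7.97% and 8.11% of all genes), and by 0 to 1 when 1 was left out with 3D6 (1 without Con_8, with 6.28%). The count of lower genes with Aβ42 was 7 with the atrial score and 26 to 49 when 1 heart was left out (26 without Abeta42_3457 or without ScrAbeta42_3449, 49 without ScrAbeta42_3448), and the complex III median was 0.16 with the atrial score. The count of higher genes with 3D6 was 46 with the mitochondrial share as a covariate, 34 relative to genes of like length, 6 when scaled to the total count (the median over all genes then being -0.057) and 8 to 26 when 1 heart was left out (8 without 3D6_21, 18 without 3D6_12, 22 without 3D6_7, 26 without Con_22). Signs of single genes were checked, and are given, only for the fixed core genes and the 3 higher and 3 lower genes of smallest p in each comparison. With the atrial score the log2 fold changes of these with Aβ42 changed sign for Sdha (0.11), Sdhb (0.19), Sdhc (0.090), Sdhd (0.19), Cyc1 (0.099), Uqcrc1 (0.16), Cox4i1 (0.17), Cox5a (0.12), Cox6a2 (0.12), Cox7a2 (0.094), Cox8b (0.13), Atp5a1 (0.15), Atp5b (0.13), Atp5c1 (0.18), Atp5g3 (0.22) and Uqcr10 (0.023), and with 3D6 for Uqcrc1 (0.0014). With the mitochondrial share those of the genes checked changed sign for Uqcrfs1 (-0.020) with Aβ42 and for Sdhb (0.070), Cyc1 (0.026), Uqcrc1 (0.039), Uqcrfs1 (0.025), Cox4i1 (0.056), Cox5a (0.076), Cox6a2 (0.083), Cox7a1 (0.080), Cox7a2 (0.067), Cox8b (0.064), Atp5g1 (0.049) and Atp5g3 (0.10) with 3D6. Among them, scaling to the total count turned Sdhd (0.0090) with Aβ42 and Cycs (-0.0061), Atp5b (-0.018), Atp5c1 (-0.026) and Atp5g2 (-0.040) with 3D6, and leaving out Abeta42_3457 with ScrAbeta42_3448 turned Sdhd (0.014), Cycs (-0.024), Cox6a1 (-0.094), Atp5c1 (0.0044) and Atp5g3 (0.0020). Leaving out 1 heart changed the sign, among these, with Aβ42 of Sdhb (-0.099 to 0.060), Sdhd (-0.065 to 0.069), Uqcrc1 (-0.18 to 0.0018), Uqcrfs1 (-0.055 to 0.079), Cycs (-0.043 to 0.11), Cox4i1 (-0.11 to 0.038), Cox6a1 (-0.063 to 0.15), Cox7a1 (-0.020 to 0.14), Cox7a2 (-0.11 to 0.0063), Atp5a1 (-0.11 to 0.032), Atp5b (-0.084 to 0.033), Atp5c1 (-0.079 to 0.062) and Atp5g3 (-0.10 to 0.061), and with 3D6 of Sdhb (-0.11 to 0.0067), Cyc1 (-0.092 to 0.0029), Uqcrc1 (-0.067 to 0.024), Uqcrfs1 (-0.055 to 0.028), Cox5a (-0.12 to 0.014), Cox6a2 (-0.18 to 0.013), Cox7a1 (-0.25 to 0.0060), Atp5b (-0.0089 to 0.069), Atp5c1 (-0.019 to 0.070), Atp5g2 (-0.042 to 0.058) and Atp5g3 (-0.13 to 0.028). It also changed the sign of the difference in share, in percentage points, for Cox6a2 (-1.16 to 0.24) and Atp5g2 (-0.016 to 0.0045) with Aβ42 and for Cox8b (-1.64 to 0.46) and Atp5g3 (-0.15 to 0.75) with 3D6. Some genes checked kept their sign but moved in size when 1 heart was left out. With Aβ42 these included Sdhc (-0.14 to -0.0082), Cyc1 (-0.20 to -0.044), Uqcr10 (-0.17 to -0.068), Atp5g1 (-0.19 to -0.051) and Cox15 (0.0055 to 0.088). With 3D6 they included Sdhc (0.037 to 0.11), Sdhd (0.0083 to 0.11), Atp5g1 (-0.16 to -0.034) and Cox8a (-0.21 to -0.069). The cause of these changes was not tested. No paired analysis was possible because no mouse number is shared between the groups compared. The atrial markers, mitochondrial share and single hearts overlap with the groups in part. Genes such as Cox4i2, Cox11 and Cox18 had low counts, and each group held 7 or 8 hearts. What sets the precision was not tested.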
